A study of Mus musculus with 4 samples.

Results

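The comparison was between 1 library from Vldlr-/- mice and 1 library from wild-type mice, both aged 2 months, made from the tissue at the back of the eye that holds the retinal pigment epithelium (RPE) and the choroid. Its members were all droplet barcodes of these libraries with at least 300 detected genes and at most 30% mitochondrial UMIs (unique molecular identifiers, 1 per captured RNA molecule), namely 2047 wild-type and 1140 knockout barcodes, 3187 of the 6555 kept in the whole series. The other 3368 came from the same genotypes at 1 month and are used below only as values beside those at 2 months. The knockout mice lack the very low density lipoprotein receptor in the whole body. The deleted part of the gene, the strain, the sexes, whether the wild-type mice were littermates, and the number of animals per library are not stated in the labels. The neural retina had been taken off first, according to the labels' protocols. Enzymatic digestion (collagenase A and Dispase II, later trypsin), depletion of dead cells and capture on the 10x Genomics Chromium system followed. With 1 library per genotype there is no replicate and no test. All 95% intervals printed here cover counting error only, and a difference between the libraries is not thereby a difference between genotypes.

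Vldlr is a receptor of the LDL receptor family that takes up triglyceride-rich lipoproteins and binds reelin. Mice without it develop vessels that grow from the retina into the space in front of the RPE, followed by scarring, and are used as a model of neovascular macular degeneration. The RPE is the pigmented layer that feeds the photoreceptors, regenerates visual pigment and forms the outer blood-retina barrier, and the choroid beneath it holds endothelial cells, pericytes and smooth muscle cells (mural cells), fibroblasts, pigment cells and macrophages. The title of the series names RPE mitochondria and subretinal fibrosis, and the comparison asked which differences were shared by several of these cell types.

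Barcodes were assigned by detected marker genes: a class was given to a barcode with at least 3 of the 8 markers of a cell type and at least 2 more than of any other. The classes are RPE-like, stromal-like (fibroblast markers such as Col1a1 and Dcn), vascular-like (endothelial or mural markers) and macrophage-like, called RPE, stromal, vascular and macrophage from here on. The RPE class held 1456 wild-type barcodes (71.1%, interval 69.1 to 73.1) and 605 knockout barcodes (53.1%, 50.1 to 56.0). The stromal class held 127 (6.20%, 5.20 to 7.34) and 154 (13.5%, 11.6 to 15.6). The vascular class held 108 (5.28%, 4.35 to 6.33) and 115 (10.1%, 8.40 to 11.98), of which 67 and 78 were endothelial and 41 and 37 mural. The macrophage class held 60 (2.93%, 2.24 to 3.76) and 54 (4.74%, 3.58 to 6.14). Barcodes with photoreceptor markers, the rods, were 95 (4.64%) and 49 (4.30%). These are shares of loaded, digested tissue after removal of dead cells, and each depends on the size of the other classes.

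**Figure D1:**
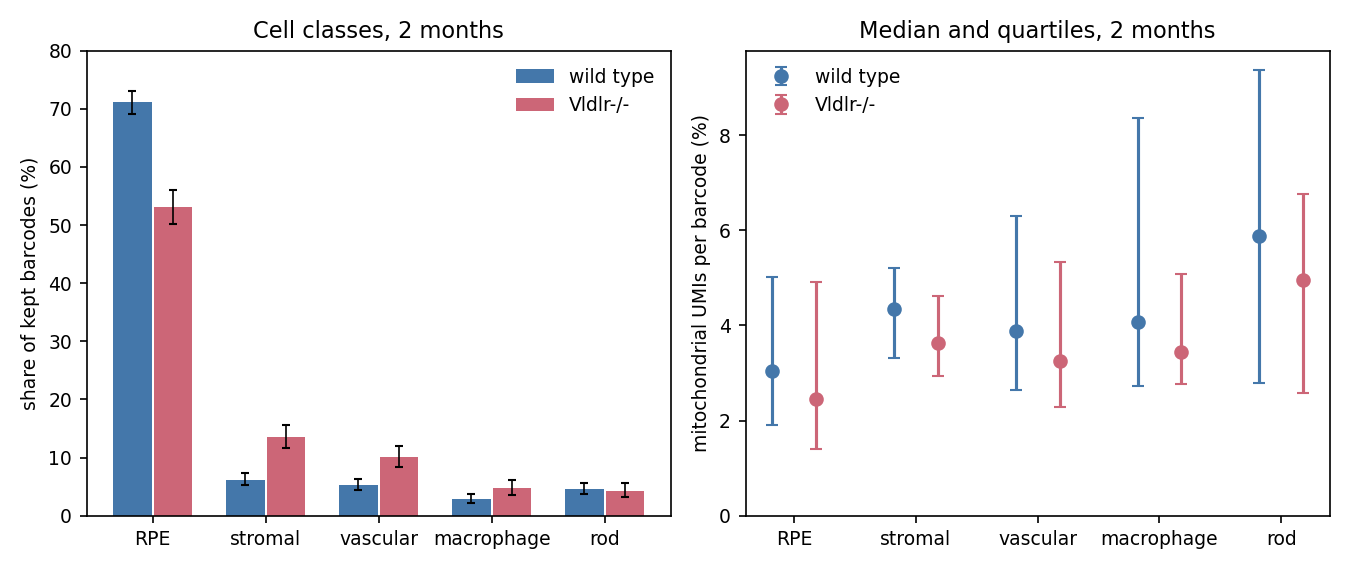
Left, share of kept barcodes (percent) in each class of the wild-type and Vldlr-/- libraries at 2 months, with exact 95% binomial intervals. Right, percentage of UMIs from mitochondrial genes per barcode, as median (point) and quartiles (bar). RPE barcodes were 71.1% of the wild-type and 53.1% of the knockout library, and the knockout median of mitochondrial UMIs lay below the wild-type median in each of the 5 classes, inside the wild-type quartiles.

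The kept barcodes carried 21788883 wild-type and 14958032 knockout UMIs, with medians of 8021 and 9029 per barcode, and the libraries shared 0 barcodes. Median depth per class was 8299 and 9537 UMIs in RPE, 8765 and 9322.5 in stromal, 8311.5 and 9131 in vascular, and 6477.5 and 10902 in macrophage barcodes. The summed level of the 8 RPE markers in other classes shows how much RPE RNA reached them. It was 0.440%, 1.58% and 0.937% of its level in RPE for wild-type stromal, vascular and macrophage barcodes, and 0.272%, 0.351% and 0.336% for knockout ones. Xist, the RNA of the inactive X chromosome, stood at 97.1 CPM (CPM: the UMIs of a gene per 1000000 UMIs of the library or class) in the wild-type and 288 CPM in the knockout library, and Y-linked Ddx3y at 64.2 and 43.1 CPM. The mix of sexes in each library is not given, and its part in the results was not tested.

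Vldlr itself (ENSMUSG00000024924), the targeted gene, was much lower in the knockout in RPE. In rods, where its wild-type level was higher than in RPE, it differed little. In RPE 2770 UMIs (175 CPM) were counted in the wild type and 208 (26.3 CPM) in the knockout. As a log2 ratio of knockout over wild-type CPM, each computed after adding 0.5 counts, this was -2.73 (interval -2.94 to -2.53). It was -3.54 among RPE barcodes under 1000 CPM of Malat1, a nuclear noncoding RNA, and -1.65 among those at or above that level. Rods held 225 and 246 UMIs (297 and 246 CPM, log2 ratio -0.27), vascular barcodes 22 and 24, and stromal barcodes 4 and 8, while macrophage barcodes held none. With the deleted part unknown, 3′ tags from a remaining transcript cannot be set apart from intact ones.

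Few differences recurred across cell types. A gene was compared in a class when the libraries held at least 30 UMIs of it there, and it counted as recurring when its levels differed at least 2-fold, one way, in 3 or more of the 4 classes. To set aside RNA leaking from a class of high expression, its level there also had to reach 0.1 of that in its highest class. Of 8113 genes measured in 3 or more classes, 3 were higher (0.0370%) and 3 were lower (0.0370%) in the knockout. The higher ones were Gm35082, Gm47283 and AC149090.1. The lower ones were Pttg1, Trim12a and Snhg3. Within single classes, in RPE 362 of 11966 genes (3.03%) were higher in the knockout by 2-fold or more and 216 (1.81%) were lower. The counts were 295 (3.05%) and 162 (1.67%) of 9688 in stromal, 177 (1.97%) and 182 (2.02%) of 9003 in vascular, and 192 (3.67%) and 153 (2.93%) of 5227 in macrophage barcodes.

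Pttg1 (ENSMUSG00000020415, GRCm38 chr11:43420250-43426251, minus strand) encodes securin, the inhibitor of separase that holds sister chromatids together until anaphase. Of the 3 lower genes it had the lowest log2 ratio in RPE. There 1385 UMIs (87.4 CPM) from 694 barcodes stood against 7 UMIs (0.885 CPM) from 7 barcodes, a log2 ratio of -6.53 (-7.94 to -5.58). Stromal barcodes held 107 and 4 UMIs (83.2 and 2.21 CPM, log2 ratio -5.07, -7.13 to -3.83), and vascular barcodes 107 and 9 (82.9 and 5.96 CPM, -3.73, -4.97 to -2.82). Wild-type levels of this gene were thus nearly the same in RPE, stromal and vascular barcodes, and the knockout levels were a small remnant in each. Macrophage barcodes held only 10 and 6 UMIs of it, and their interval included 0 (log2 ratio -1.31, -3.09 to 0.25). Rods held 36 and 0 UMIs, at least 15.9-fold lower against a floor of 3 counts. At 1 month Pttg1 was lower as well, with log2 ratios of -4.07 in RPE (91 and 3 UMIs), -3.95 in stromal (201 and 16), -3.31 in vascular (12 and 2) and -1.79 in macrophage barcodes (41 and 4).

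Trim12a (ENSMUSG00000066258, chr7:104299894-104315466, minus strand) belongs to the tripartite motif family, whose members include retroviral restriction factors. It was counted 124 times in wild-type and 4 times in knockout RPE (7.83 and 0.506 CPM, log2 ratio -3.79, -5.85 to -2.56). In stromal barcodes the counts were 40 and 1 (-5.24, -11.15 to -3.25). With 38 and 0 in vascular and 20 and 0 in macrophage barcodes, it was at least 14.8-fold and at least 10.2-fold lower there. At 1 month stromal barcodes held 127 and 6 UMIs of Trim12a (-4.63). Close copies lie beside it, so the split of reads among them is uncertain: Trim34a was lower too (log2 ratios -1.14, -1.67, -3.19 and -2.94 in RPE, stromal, vascular and macrophage barcodes, from at most 37 UMIs a library), while Trim12c was not (0.24, 1.02, 0.76 and -0.07).

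Snhg3 (ENSMUSG00000085241, chr4:132348014-132353686, minus strand), a noncoding host gene of small nucleolar RNAs, was lower by a similar amount in every class. The wild-type and knockout levels were 22.9 and 8.85 CPM in RPE (363 and 70 UMIs, log2 ratio -1.36, -1.76 to -1.0005), 63.7 and 17.2 in stromal (82 and 31 UMIs, -1.88, -2.54 to -1.28) and 37.2 and 9.27 in vascular barcodes (48 and 14 UMIs, -1.97, -2.98 to -1.12). Macrophage barcodes, with 16 and 8 UMIs, were under the 30 UMIs needed and gave -1.57 (-3.05 to -0.31). At 1 month the log2 ratios of Snhg3 were -1.12, -0.69, -0.33 and -2.56 in the same order of classes, the vascular one from 3 and 5 UMIs.

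Gm35082 (ENSMUSG00000108866, chr7:100675088-100677760, plus strand), an uncharacterised long intergenic RNA, was the clearest gene in the other direction. The wild-type library held no UMI of it at all, and the knockout library held 478 from 280 barcodes. By class the knockout counts were 164 in RPE, 61 in stromal, 71 in vascular and 22 in macrophage barcodes, or 20.7, 33.8, 47.0 and 31.7 CPM. Against a floor of 3 wild-type counts per class these are at least 109-fold, 14.5-fold, 20.2-fold and 4.79-fold higher. The 1-month libraries held 0 and 94 UMIs of Gm35082 in stromal, 0 and 11 in RPE, 0 and 5 in vascular, and 1 and 7 in macrophage barcodes.

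Both other higher genes are poorly described loci. Gm47283 (ENSMUSG00000096768) is annotated on chromosome Y at 90784738 to 90816464, plus strand. Its levels in wild-type and knockout were 7.45 and 26.9 CPM in RPE (118 and 213 UMIs, log2 ratio 1.85, 1.52 to 2.19), 33.4 and 91.3 in stromal (43 and 165 UMIs, 1.44, 0.96 to 1.97) and 26.5 and 90.8 in macrophage barcodes (12 and 63 UMIs, 1.73, 0.87 to 2.80). Vascular barcodes fell just short of 2-fold (50.4 and 99.3 CPM, 0.97, 0.55 to 1.42). Y-linked Ddx3y did not share this, with log2 ratios of -0.66, -0.47, -0.15 and 0.26 in RPE, stromal, vascular and macrophage barcodes. AC149090.1 (ENSMUSG00000095041), on the unplaced scaffold JH584304.1, stood at 16.9 and 60.9 CPM in RPE (267 and 482 UMIs, 1.85, 1.63 to 2.07), 10.9 and 46.5 in stromal (14 and 84 UMIs, 2.05, 1.27 to 3.03) and 24.8 and 67.6 in vascular barcodes (32 and 102 UMIs, 1.43, 0.86 to 2.07). Within RPE barcodes under and above 1000 CPM of Malat1 the log2 ratios were 0.82 and 1.15 for AC149090.1 and 1.52 and 0.99 for Gm47283. With the first set alone neither gene recurred. AC149090.1 was under 2-fold in RPE there, while Gm47283 stayed past 2-fold but its RPE level was under 0.1 of its highest class. With the second set Gm47283 did not recur, being just under 2-fold in RPE. In macrophages, where AC149090.1 was most abundant, it was 177 and 327 CPM (0.88, 0.52 to 1.28). At 1 month neither gene showed the same pattern: Gm47283 gave 1.13, 0.67, -0.50 and -0.42, and AC149090.1 gave 0.16, -0.48, 0.12 and -0.27.

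**Figure D2:**
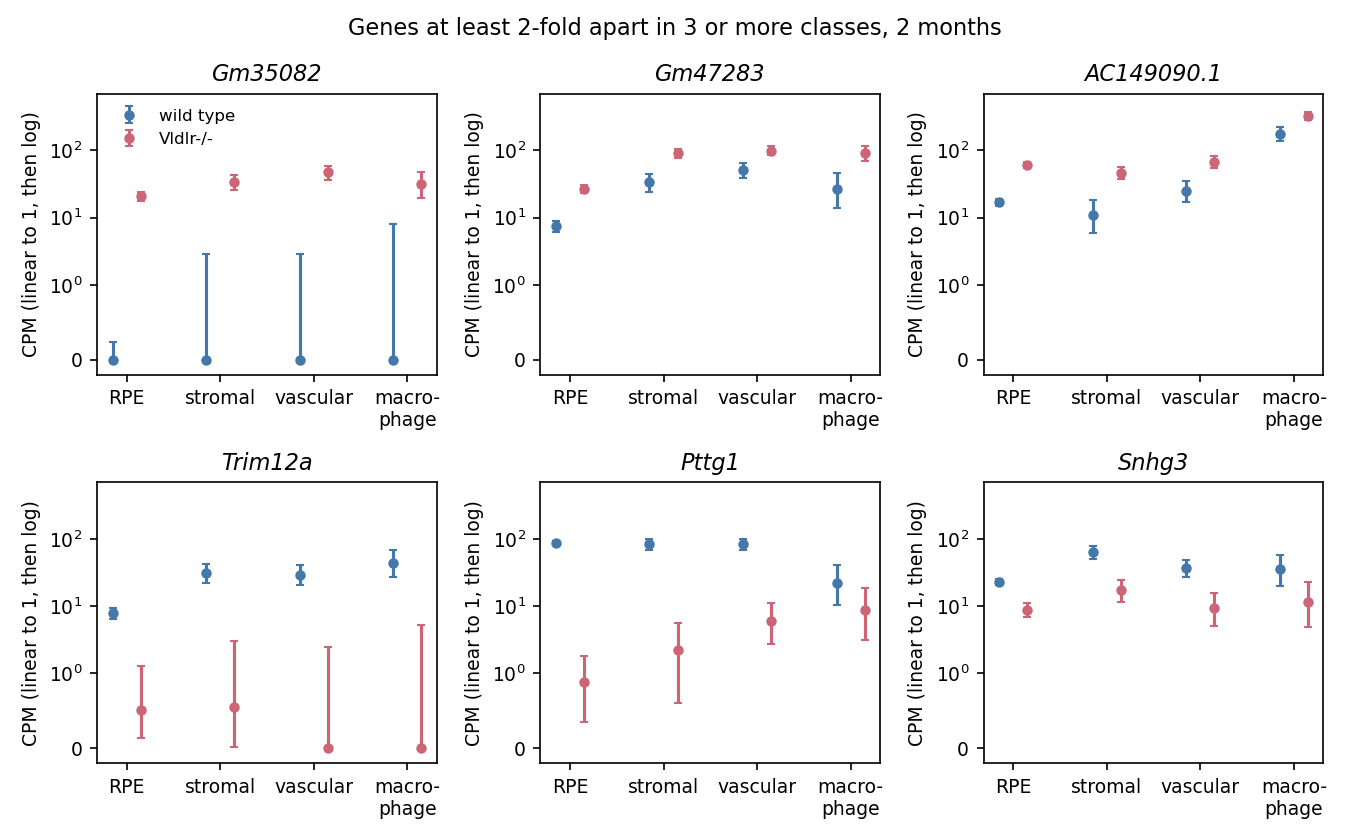
Level in CPM (linear to 1, then logarithmic) of the 6 genes at least 2-fold apart in 3 or more classes, for wild-type and Vldlr-/- barcodes of each class at 2 months, with exact 95% Poisson intervals. Gm35082 was at 0 in every wild-type class and between 20.7 and 47.0 CPM in the knockout classes, and Pttg1 was at 87.4, 83.2 and 82.9 CPM in wild-type RPE, stromal and vascular barcodes and at 0.885, 2.21 and 5.96 CPM in the knockout.

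Since these genes differed alike in unrelated cell types, their promoters are shown, as the 250 bases before the RefSeq start site (GRCm38.p6). RefSeq held promoters for 4 of the 6 genes. That of Pttg1 (chr11:43425982-43426231) overlaps annotated untranslated exons and is only described: it was 63.6% G and C and held 20 CG pairs, against medians of 52.4% and 6 over 32851 RefSeq promoters. The others follow 5′ to 3′ on the gene's strand, with each CCAAT or its reverse ATTGG in capitals. They are chr4:132353687-132353936 (minus) for Snhg3, chr7:104315496-104315745 (minus) for Trim12a and chr7:100674757-100675006 (plus, the first of 3 RefSeq starts) for Gm35082.
Snhg3: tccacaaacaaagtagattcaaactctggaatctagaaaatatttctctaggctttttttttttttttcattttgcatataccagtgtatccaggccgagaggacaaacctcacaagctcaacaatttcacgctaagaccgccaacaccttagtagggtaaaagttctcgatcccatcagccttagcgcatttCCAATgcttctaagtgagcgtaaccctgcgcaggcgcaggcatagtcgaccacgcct
Trim12a: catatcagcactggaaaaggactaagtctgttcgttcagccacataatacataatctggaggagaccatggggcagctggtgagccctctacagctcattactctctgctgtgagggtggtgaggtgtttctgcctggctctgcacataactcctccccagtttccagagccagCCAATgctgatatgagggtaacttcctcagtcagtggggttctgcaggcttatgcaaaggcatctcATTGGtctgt
Gm35082: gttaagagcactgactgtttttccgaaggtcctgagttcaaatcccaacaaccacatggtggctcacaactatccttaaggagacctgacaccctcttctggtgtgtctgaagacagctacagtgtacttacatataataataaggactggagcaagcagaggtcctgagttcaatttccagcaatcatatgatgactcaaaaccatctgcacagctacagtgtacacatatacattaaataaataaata
CCAAT was searched on both strands and is present in 33.8% of all promoters of this length. Trim12a held 2 matches, Snhg3 held 1, and Pttg1 and Gm35082 held 0, and the 4 windows ranged from 40.8% (Gm35082) to 63.6% (Pttg1) G and C. The GC box GGGCGG, present in 32.7% of promoters, was in none of the 4. Neither motif occurred in all 4 windows.

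At least 2-fold in 2 or more classes were 33 of 9921 genes (0.333%) on the higher and 26 (0.262%) on the lower side, the recurring genes included. Counting both directions, chromosome 7 had 7 of its 721 measured genes (0.971%) and chromosome 4 had 7 of 610 (1.15%). Shares on chromosomes 9, 14 and 2 were not far below, at 0.873%, 0.865% and 0.762%. Chromosome 8 had 0.189% and chromosome 6 had 0 of 494. Whether any chromosome departed from the share of all genes was not tested. Hddc3, a hydrolase of the alarmone family on chromosome 7, was at 14.3 and 64.6 CPM in RPE (226 and 511 UMIs, log2 ratio 2.18, 1.95 to 2.41). It was also higher in stromal barcodes (8 and 29 UMIs, 1.31, 0.20 to 2.71), and its vascular counts of 5 and 21 pointed the same way. At 1 month Hddc3 gave 2.63 in RPE and 1.03 in stromal barcodes.

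Acadsb, a mitochondrial acyl-CoA dehydrogenase of branched-chain amino acid breakdown, also on chromosome 7, was lower in all 4 classes. It stood at 62.5 and 9.73 CPM in RPE (990 and 77 UMIs, -2.67, -3.04 to -2.35, and -5.08 and -1.97 in RPE barcodes under and above 1000 CPM of Malat1), 92.2 and 34.4 in vascular (119 and 52 UMIs, -1.41, -1.92 to -0.94) and 87.8 and 53.1 in stromal barcodes (113 and 96 UMIs, -0.72, -1.13 to -0.32). Macrophages held 13 and 7 UMIs (-1.46, -3.07 to -0.08). Gdpd3, a lysophospholipase D that makes lysophosphatidic acid, was higher in macrophages, at 11.03 and 215 CPM (5 and 149 UMIs from 5 and 39 barcodes, 4.15, 3.03 to 5.93), and in vascular barcodes, at 5.42 and 47.0 CPM (7 and 71 UMIs, 3.03, 2.00 to 4.48). Stromal barcodes did not share this (6 and 7 UMIs of Gdpd3). In macrophages of the 1-month libraries Gdpd3 was counted 12 and 95 times (4.35, 3.53 to 5.40).

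Serpina3n, a secreted protease inhibitor raised in reactive glia and in acute inflammation, was higher in RPE (272 and 1600 UMIs, 17.2 and 202 CPM, 3.56, 3.37 to 3.75) and in stromal barcodes (42 and 206 UMIs, 32.6 and 114 CPM, 1.79, 1.32 to 2.32). In RPE 3 barcodes held 60.4% of the knockout UMIs, while stromal UMIs came from 75 knockout barcodes against 19 wild-type ones. The stromal log2 ratio of Serpina3n at 1 month was 2.44 (1.91 to 3.05). Mcm6, a subunit of the replicative helicase, was lower in stromal (47 and 9 UMIs, -2.81, -4.09 to -1.83) and vascular barcodes (28 and 5 UMIs, -2.60, -4.44 to -1.32). Fabp4, a fatty acid carrier, was lower in vascular and macrophage barcodes (-1.48 and -1.52), but 3 barcodes held 90.6% and 98.5% of its wild-type UMIs there, and the vascular value without the 3 richest barcodes of each library was -0.60.

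Shared calls were counted pair by pair. After the guard against leaked RNA, stromal and vascular barcodes shared 11 lower genes, 7.10% of the stromal and 7.28% of the vascular list. Before the guard, 2.02% of all measured vascular genes and 1.67% of the stromal ones were lower. Below, each share of a list likewise stands beside the share of all genes in the other class. RPE and vascular barcodes shared 9 lower genes (6% and 5.96%, beside 2.02% and 1.81% of all genes before the guard). RPE and stromal barcodes shared 13 higher genes (4.56% and 5.14%, beside 3.05% and 3.03%). RPE and macrophage barcodes shared 1 higher gene (0.351% and 0.521%, beside 3.67% and 3.03%). They shared 0 lower ones, beside 2.93% and 1.81% of all genes. A list also holds genes not measured in the other class, with 11966 measured in RPE and 5227 in macrophages, and the guard removes calls. These shares thus have unlike bases, and a lower one does not by itself show a shortage. Differences between the pairs were not tested. Tnfrsf21, a death receptor, went both ways, with log2 ratios of -2.55 in RPE (64 and 5 UMIs) and -1.05 in vascular barcodes against 1.53 in stromal (10 and 42 UMIs) and 3.15 in macrophage barcodes (3 and 47 UMIs).

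At a limit of 1.5-fold, 12 genes (0.148% of 8113) were higher and 17 (0.210%) lower in 3 or more classes. Hist1h1e, a linker histone, was lower in RPE (-0.91), stromal (-0.60), vascular (-0.58) and macrophage barcodes (-1.10). Zdhhc18, a palmitoyltransferase, was higher in all 4 (0.70, 1.10, 1.18 and 0.91). So was Pde4d, a phosphodiesterase that degrades cyclic AMP, at 28.0 and 121 CPM in RPE (2.11, 1.95 to 2.28), 559 and 946 in stromal (0.76, 0.63 to 0.89), 739 and 1078 in vascular (0.54, 0.43 to 0.66) and 260 and 392 in macrophage barcodes (0.59, 0.27 to 0.91).

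Lower in 3 or more classes were also Fkbp5, a co-chaperone of steroid receptors, and the transcription factors Cebpb and Cebpd. Fkbp5 stood at 670 and 407 CPM in stromal (-0.72, -0.86 to -0.57), 405 and 246 in vascular (-0.72, -0.92 to -0.53), 768 and 280 in macrophage (-1.46, -1.72 to -1.20) and 10.5 and 3.03 in RPE barcodes (-1.76, -2.47 to -1.17). It was spread over 113 wild-type and 128 knockout stromal barcodes. At 1 month the stromal level of Fkbp5 was 61.2 and 66.1 CPM, and the log2 ratio 0.11 had an interval that included 0 (-0.21 to 0.43). Cebpb was lower at 2 months by -0.31 in RPE, -0.89 in stromal, -1.36 in vascular and -1.33 in macrophage barcodes. Cebpd was lower in stromal (-0.74), vascular (-0.62) and macrophage barcodes (-1.38) but higher in RPE (1.26). Per1, a clock gene, was lower too, by -0.86 in RPE, -0.62 in vascular and -1.13 in macrophage barcodes, with -0.11 in stromal ones. Among these 23 genes besides the 6 recurring ones, Acadsb (-0.94) and Isg15 (-1.03) were also at least 1.5-fold lower in stromal barcodes at 1 month.

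**Figure D3:**
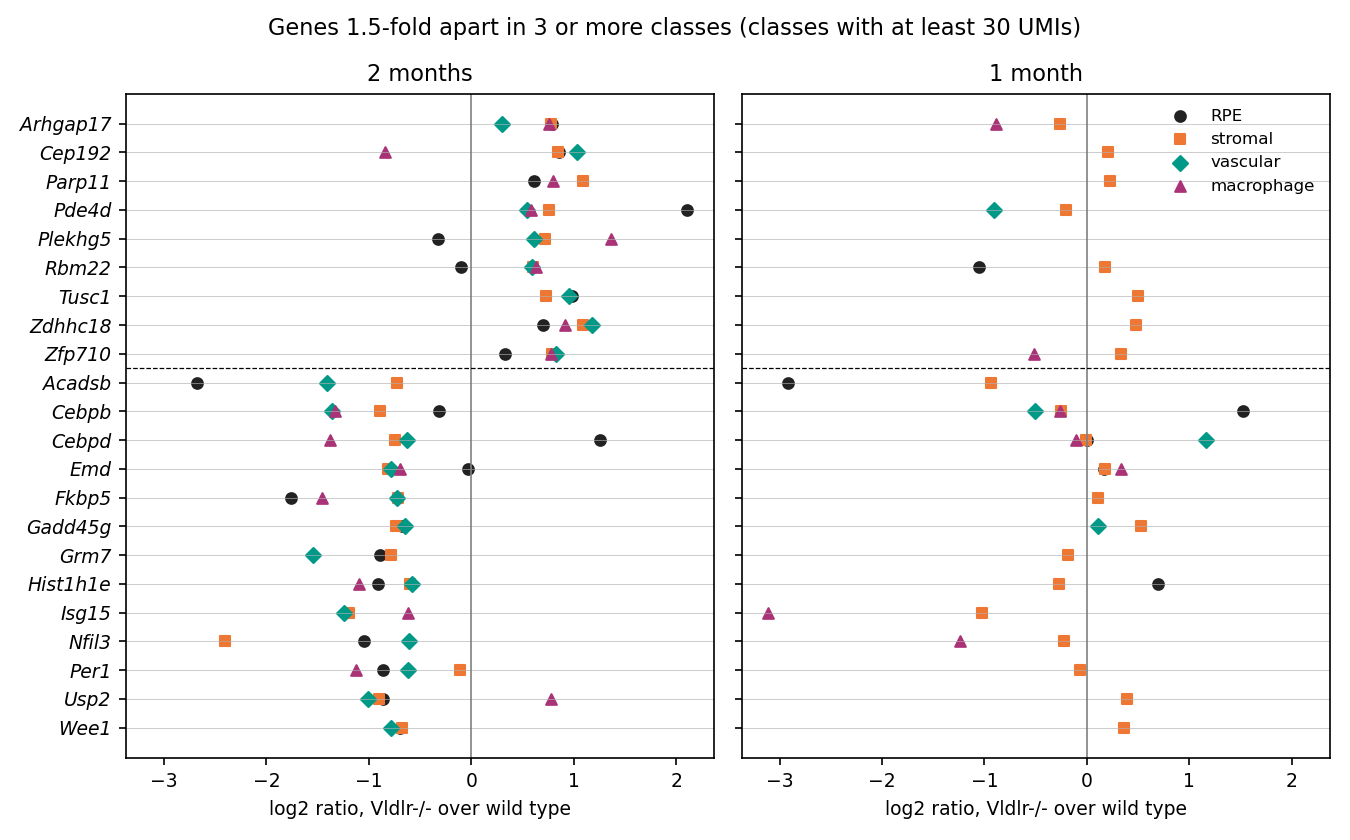
Log2 ratio of Vldlr-/- to wild type for 22 of the 23 further genes at least 1.5-fold apart in 3 or more classes (higher above the dashed line, lower below it), by class, at 2 months (left) and 1 month (right). Only classes with at least 30 UMIs of the gene, and UMIs in both libraries, are drawn. Fkbp5 lay between -0.72 and -1.76 in the 4 classes at 2 months, and Zdhhc18 lay between 0.70 and 1.18.

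Genes of the respiratory chain differed by class. Of the 37 nuclear genes of complex I, the entry point of electrons from NADH, 36 were lower in knockout RPE, with a median log2 ratio of -0.15 against 0.05 over all RPE genes. Among RPE barcodes at or above 1000 CPM of Malat1 alone, called Malat1-rich here, the median was 0.0023. All 34 measured genes of complexes III to V were lower there (median -0.28, and -0.12 among the Malat1-rich barcodes), Atp5b, the catalytic subunit of ATP synthase, at 552 and 442 CPM (-0.32, -0.38 to -0.26). Stromal, vascular and macrophage barcodes did not share this: complex I had 18 lower of 37 in stromal (median 0.00), 22 of 37 in vascular (-0.06) and 10 of 36 in macrophage barcodes (0.18). Genes of complexes III to V were lower for 16, 22 and 9 of 34 in the same order (medians 0.01, -0.06 and 0.19). Enzymes of the citric acid cycle and fatty acid oxidation followed the same split, with 35 of 40 lower in RPE (median -0.19), among them Fh1, fumarase, at -0.57, and 17 of 40 lower in stromal and in vascular barcodes (medians 0.07 and 0.04). Rods leaned lower as RPE did, for 31 of 37 genes of complex I (median -0.19) and 23 of 34 of complexes III to V (-0.17). Of these enzymes 21 of 31 measured were lower in rods (-0.19), beside a median of 0.08 over all rod genes. None of the complex I, III to V or mitochondrially encoded genes reached 2-fold in any of the 4 classes.

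The 13 respiratory-chain subunits encoded in mitochondrial DNA had another distribution. They were lower for 8 of 13 in RPE (median -0.07, and -0.63 among the Malat1-rich barcodes), 9 in stromal (-0.16), 12 in vascular (-0.49) and 10 in macrophage barcodes (-0.35). mt-Cytb, of complex III, stood at 6407 and 6084 CPM in RPE, 6214 and 5180 in stromal, 6448 and 4002 in vascular (-0.69, -0.74 to -0.64) and 4734 and 3541 in macrophage barcodes. mt-Nd2, of complex I, gave -0.19, -0.30, -0.49 and -0.39. The median percentage of mitochondrial UMIs per barcode was 3.03 and 2.44 in RPE, 4.34 and 3.63 in stromal, 3.88 and 3.25 in vascular, 4.07 and 3.44 in macrophage and 5.88 and 4.96 in rod barcodes. At 1 month the mitochondrially encoded genes were lower for 13 of 13 in RPE (median -0.35) and in stromal barcodes (-0.13). They were lower for 6 of 11 in vascular (-0.04) and 8 of 12 in macrophage barcodes (-0.07), beside medians of 0.19 and -0.11 over all genes.

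Genes of lipid synthesis were mostly on the higher side in RPE. Of 24 measured genes of cholesterol synthesis, 21 were above 0 in knockout RPE (median 0.35), where 6806 of all 11966 genes were. At least 2-fold higher was 1 of the 24, beside 3.03% of all RPE genes. Sqle, squalene epoxidase, was at 42.0 and 103 CPM (1.29, 1.14 to 1.44). The list was split in stromal (6 higher, 7 lower, median -0.06) and vascular barcodes (5 and 9, median -0.22), and in macrophages 4 of only 6 measured were higher (median 0.44). Fatty acid and triglyceride synthesis had 13 of 17 higher in RPE (median 0.22), led by Scd1, the stearoyl-CoA desaturase, at 7.95 and 48.7 CPM (2.61, 2.32 to 2.91, and 3.13 and 1.52 in RPE barcodes under and above 1000 CPM of Malat1), and Thrsp, a regulator of lipogenesis, at 4.48 and 23.9 CPM (2.41, 2.01 to 2.83). Stromal and vascular medians were -0.14 and -0.20, and that of the 5 genes measured in macrophages was 0.36. The differences between classes were not tested. Genes of lipoprotein uptake and efflux were close to evenly split in RPE (8 higher, 10 lower), Vldlr being the 1 at least 2-fold lower.

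**Figure D4:**
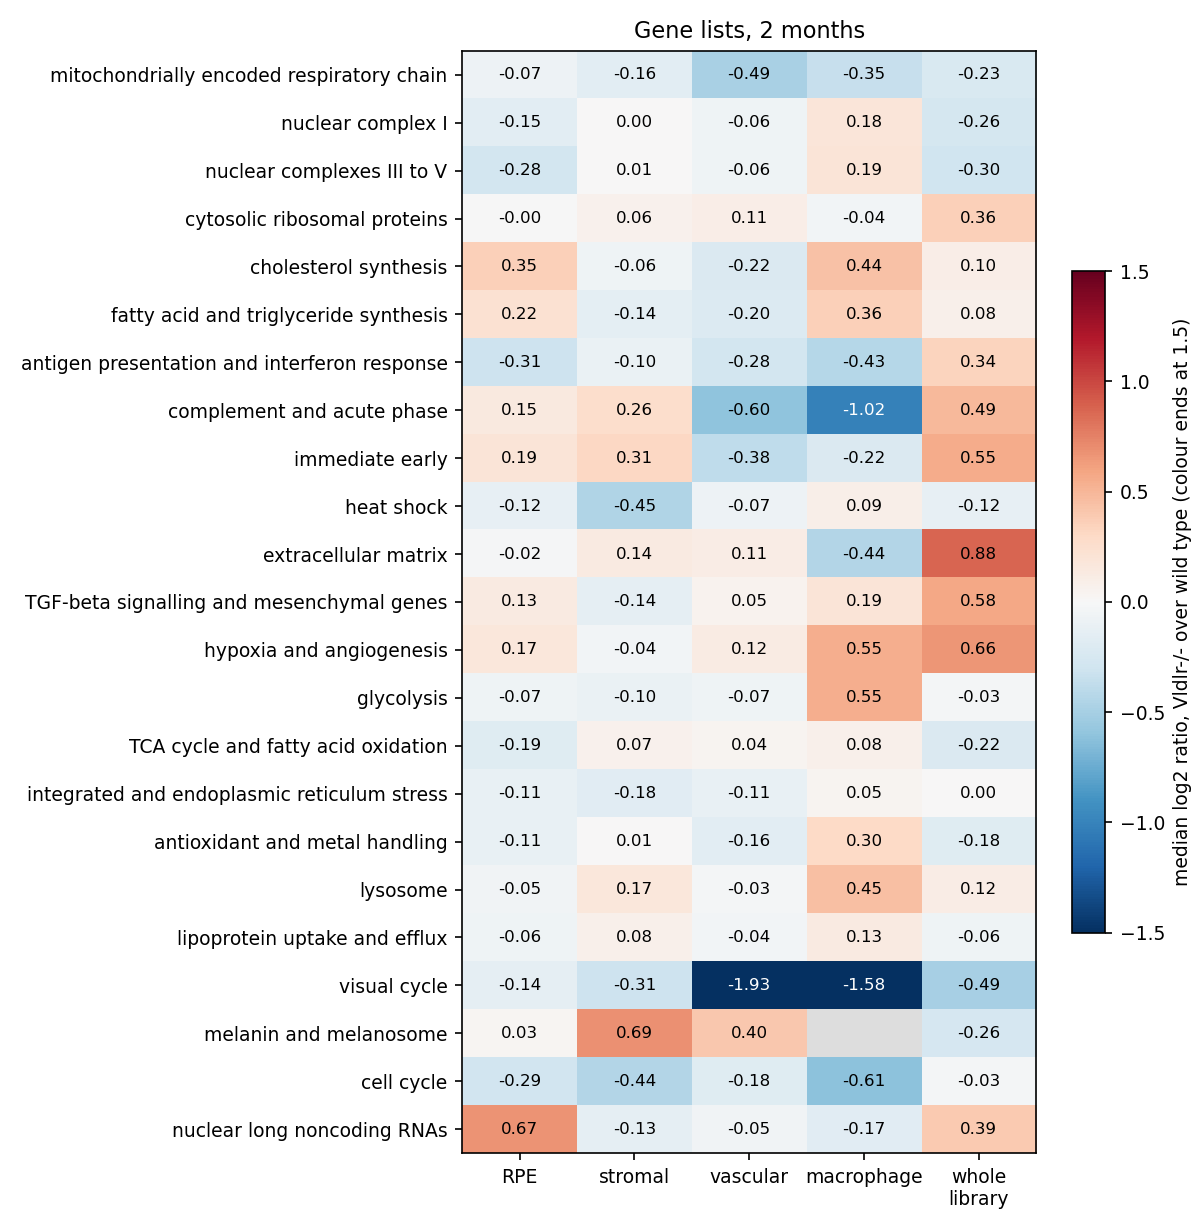
Median log2 ratio of Vldlr-/- to wild type over the measured members of 23 gene lists, in each class and over all kept barcodes at 2 months; grey marks fewer than 4 measured members. Complexes III to V were at -0.28 in RPE and between -0.06 and 0.19 in stromal, vascular and macrophage barcodes, and extracellular matrix genes were at 0.88 over the whole library but 0.14 in stromal barcodes.

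Antigen presentation and interferon response genes leaned lower in all 4 classes, by 19 of 28 in RPE (median -0.31), 19 of 33 in stromal (-0.10), 23 of 30 in vascular (-0.28) and 23 of 30 in macrophage barcodes (-0.43). At least 2-fold lower were 7, 1, 6 and 0 of them, where 1.81%, 1.67%, 2.02% and 2.93% of all genes were. At least 2-fold higher were 0, 5, 0 and 0, where 3.03%, 3.05%, 1.97% and 3.67% of all genes were. Isg15, the interferon-induced ubiquitin-like modifier, was lower in stromal (52.1 and 22.7 CPM, -1.19, -1.80 to -0.62) and vascular barcodes (42.6 and 17.9 CPM, -1.24, -1.97 to -0.56), with -0.61 in macrophages from 21 UMIs each. Ifit1, another interferon-induced gene, was counted 71 and 3 times in RPE (-3.35, -5.87 to -1.96), from 50 and 2 barcodes. Cd74, the invariant chain of class II molecules, gave -1.84 in RPE, but 3 barcodes held 94.2% of its 468 wild-type UMIs. Without the 3 richest barcodes of each library the RPE value was 0.17. In stromal barcodes Cd74 was higher (2.38), with 99.3% of the 303 knockout UMIs in 3 barcodes. Macrophages, which express it abundantly, held 5961 and 3919 CPM of Cd74 (-0.61, -0.68 to -0.53) and 2474 and 1322 CPM of H2-Aa (-0.90, -1.03 to -0.78).

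Stress lists did not move as one. Heat shock genes were lower for 13 of 16 in stromal (median -0.45) and 14 of 16 in RPE (-0.12), for 10 of 16 in vascular barcodes (-0.07) and for 2 of 8 in macrophages (0.09). Hspb1, a small heat shock protein, was at 353 and 110 CPM in stromal barcodes (-1.68, -1.94 to -1.44). Its value without the 3 richest barcodes of each library was -1.11, and at 1 month it was -0.38. The metallothioneins Mt1 and Mt2, metal-binding proteins, were lower in stromal (Mt1 1295 and 490 CPM, -1.40, -1.52 to -1.28, and Mt2 511 and 88.6 CPM, -2.52, -2.79 to -2.28) and vascular barcodes (-1.19 and -1.38). After subtraction of an RPE profile scaled by the marker level the vascular value of Mt2 was -0.73, under 2-fold. RPE, with Mt1 at 11849 and 10704 CPM, did not share this (-0.15 for Mt1 and -0.04 for Mt2). In 1-month stromal barcodes both were higher in the knockout, by 1.61 for Mt1 and 1.78 for Mt2. Immediate early genes, induced within minutes of a stimulus, were higher for 16 of 21 in stromal (median 0.31) and 13 of 20 in RPE (0.19) but lower for 18 of 24 in vascular (-0.38) and 14 of 20 in macrophage barcodes (-0.22). In Malat1-rich RPE barcodes alone their median was -0.45. At 1 month they were lower for 25 of 26 in stromal (median -0.71), 14 of 18 in vascular (-0.84) and 20 of 21 in macrophage barcodes (-1.24). Csrnp1, from that list, was at 75.2 and 27.2 CPM in vascular barcodes (-1.46, -2.03 to -0.93). Genes of the integrated and endoplasmic reticulum stress responses had medians of -0.11 in RPE (0.25 in Malat1-rich RPE), -0.18 in stromal, -0.11 in vascular and 0.05 in macrophage barcodes, with none at least 2-fold apart.

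Cytosolic ribosomal protein genes were close to level, with medians of -0.00 in RPE, 0.06 in stromal, 0.11 in vascular and -0.04 in macrophage barcodes. Rps3a1 departed from the rest, being lower in each class (-0.54, -0.34, -0.49 and -0.76, from 544 to 5077 UMIs a library). Cell-cycle genes were rarely counted: 13 of 23 were measured in RPE, 9 of them lower, and 8 in stromal, 6 of them lower, where Pttg1 and Mcm6 were the 2 past 2-fold. Antioxidant genes were lower for 22 of 28 in RPE (median -0.11, and 0.011 in Malat1-rich RPE) and 18 of 26 in vascular barcodes (-0.16) but higher for 16 of 22 in macrophages (0.30). Complement and acute phase genes were lower for 10 of 13 in vascular (median -0.60) and 7 of 8 in macrophage barcodes (-1.02), and split in RPE (8 higher, 6 lower) and stromal barcodes (12 and 7).

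In RPE the largest differences fell into groups by how many barcodes carried them. Besides Gm35082, the 3 genes furthest on the higher side with at least 100 UMIs were Trnp1, a chromatin protein of neural progenitors (3.85 and 79.6 CPM, 4.36, 3.99 to 4.77, in 42 and 232 barcodes), Erich5 (1.77 and 25.4 CPM, 3.82, 3.27 to 4.47, in 28 and 141) and Lrit1, a leucine-rich repeat protein known from photoreceptors (2.97 and 41.5 CPM, 3.79, 3.36 to 4.28, in 44 and 133). These were spread: no 3 barcodes held more than 19.7% of their UMIs in either library. At 1 month Trnp1 was counted 1 and 35 times and Lrit1 3 and 25 times in RPE. On the lower side, besides Pttg1, stood Gpx3 (1647 and 14 UMIs, -5.83, -6.75 to -5.13) and Penk (439 and 0, at least 73.1-fold lower). Of their wild-type UMIs 3 barcodes held 78.9% and 73.8%. Penk was counted in 24 of 1456 RPE barcodes, and 12 wild-type and 0 knockout RPE barcodes held 2 or more of Gpx3, Penk, Optc and Crhbp, genes that lie outside the RPE marker list.

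The level of Malat1 differed within RPE. Its level was 6321 and 14345 CPM (1.18), and 171 barcodes in each library, 11.7% of the wild-type and 28.3% of the knockout RPE, reached 1000 CPM of it. In stromal, vascular and macrophage barcodes its log2 ratios were 0.10, -0.02 and -0.21. All 7 measured nuclear noncoding RNAs were higher in knockout RPE (median 0.67), among them Xist at 1.80. Among RPE barcodes at or above 1000 CPM of Malat1 alone, the median of the list was -0.06. With RPE barcodes under 1000 CPM alone, the count of genes past 2-fold in 3 or more classes was 1 higher (Gm35082) and 3 lower.

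Visual cycle genes, which recycle retinaldehyde for the photoreceptors, had 11 of 14 lower in RPE, with a median of -0.14, which was 0.24 in Malat1-rich RPE barcodes alone. In vascular barcodes all 10 measured were lower, with a median of -1.93, and in macrophages 5 of 6 (-1.58). The summed RPE markers in these classes were lower in the knockout as well, as given above, and their part in the macrophage values was not tested. Rgr, which photoisomerises retinal, was counted 222 and 51 times in vascular barcodes (-2.34), 3 barcodes holding 86.9% of the wild-type UMIs, while it gave 0.16 in RPE. After subtraction of an RPE profile scaled by the marker level, the vascular median of the list was -0.14.

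In stromal barcodes Clec3b, a plasminogen-binding protein (tetranectin) of fibroblasts, was higher, at 21.0 and 206 CPM (27 and 373 UMIs from 6 and 38 barcodes, 3.27, 2.73 to 3.92). It was higher at 1 month too (113 and 604 UMIs, 2.08, 1.79 to 2.39). Postn, the matrix protein periostin, was at 53.6 and 151 CPM (1.49, 1.11 to 1.90), with 0.36 (0.14 to 0.59) at 1 month. Tnc, tenascin C, went the other way (26 and 10 UMIs, -1.83). Of 38 extracellular matrix genes, 23 were higher and 15 lower (median 0.14), 1 and 2 of them at least 2-fold, beside 3.05% and 1.67% of all stromal genes. The genes furthest apart rested on few barcodes. Retnla (0 and 203 UMIs) and Lyz1 (1 and 101) came from 1 knockout barcode each, and Optc (1 and 151) from 2. Tagln (929 and 23 UMIs, -5.80, -6.49 to -5.23) and Lmod1 (106 and 6, -4.52, -6.11 to -3.46), genes of smooth muscle, had 86.1% and 98.1% of their wild-type UMIs in 3 barcodes. The summed mural markers in stromal barcodes were 1669 CPM in the wild type and 639 in the knockout, with 0 of the 8 at 0 in either, and their part in the result was not tested.

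Vascular barcodes held more Prickle1, a planar cell polarity gene (42.6 and 132 CPM, 55 and 199 UMIs from 31 and 56 barcodes, 1.62, 1.19 to 2.09). They also held more Zfp366, a zinc finger protein of endothelial cells (41.8 and 128 CPM, from 29 and 55 barcodes, 1.60, 1.17 to 2.07). Within endothelial barcodes alone these values were 1.47 (1.02 to 1.96) and 1.46 (1.02 to 1.93). Tek, the angiopoietin receptor Tie2, was at 203 and 407 CPM (1.00, 0.79 to 1.22), and at 0.87 (0.66 to 1.09) in endothelial barcodes alone, where Kdr, the main VEGF receptor, differed little over the vascular class (0.17, 0.05 to 0.28). Inhbb, an activin subunit, was at 29.4 and 80.8 CPM (1.44, 0.92 to 2.02) from 11 and 14 barcodes. Cxcl9 (107 and 0 UMIs) and Cxcl10 (277 and 3 UMIs) came from 1 wild-type barcode each, and Dlk1 (219 and 4) from 4. Hbb-bs, a hemoglobin chain, was counted 4 and 240 times in vascular barcodes (5.51), 91.2% of the knockout UMIs in 3 barcodes. In RPE it was counted 2274 and 140 times (-3.02), with 96.5% of the wild-type UMIs in 3 barcodes. The red-cell markers summed to 229 and 28.9 CPM in RPE and 6.2 and 251 CPM in vascular barcodes, and their part in these results was not tested.

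Macrophages held less Pde7b, a cyclic AMP phosphodiesterase, at 693 and 98.0 CPM (314 and 68 UMIs from 34 and 21 barcodes, -2.81, -3.22 to -2.44). Cd68, a lysosomal glycoprotein of phagocytes, was higher, at 558 and 1065 CPM (0.93, 0.72 to 1.14), and 22 of 26 lysosome genes were higher with it (median 0.45). The 1-month value of Cd68 was 0.63 (0.33 to 0.92), and 19 lysosome genes were higher and 3 lower (median 0.55). Ctss, a lysosomal protease, differed little (-0.03, -0.13 to 0.06). Glycolysis genes were higher for 12 of 13 (median 0.55), Hk2, hexokinase, at 66.2 and 121 CPM (0.86, 0.25 to 1.52), whereas they were lower for 13 of 17 in stromal and 10 of 18 in RPE barcodes. At 1 month 6 glycolysis genes were higher and 6 lower in macrophages (median 0.0034), and 16 of 17 were higher in stromal barcodes (0.21). Spp1, osteopontin, was lower (343 and 39 UMIs, -3.73, -4.27 to -3.27), with 95.6% of the wild-type UMIs in 3 barcodes, and at 1 month it was higher (59 and 268 UMIs, 3.59). The chemokines Ccl5 (0 and 118 UMIs) and Ccl2 (18 and 160, 2.50, 1.83 to 3.33) were higher, from 4 and 12 knockout barcodes, and Ccl12 was lower (140 and 59, -1.85, -2.33 to -1.41). Slc1a3, a glutamate transporter, was counted 9 and 134 times, 92.5% of the latter in 3 barcodes, and Atp6v0d2, a proton pump subunit, 93 and 38 times (-1.89).

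How far calls depended on single barcodes was counted by leaving out, gene by gene, the 3 barcodes of each library that held most of its UMIs. In RPE 285 of the 362 higher genes (78.7%) and 195 of the 216 lower ones (90.3%) stayed at least 2-fold apart. The shares that stayed were 80% and 74.1% in stromal, 91.0% and 75.3% in vascular and 85.9% and 75.8% in macrophage barcodes for higher and lower genes. Of the 6 recurring genes, 5 recurred without those barcodes, and Trim12a did not. In the library where the gene was higher, 3 barcodes held at least 50% of the UMIs for 36.9% of the stromal higher genes and 35.2% of the RPE lower genes, but for 11.9% of the vascular higher genes.

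**Figure D5:**
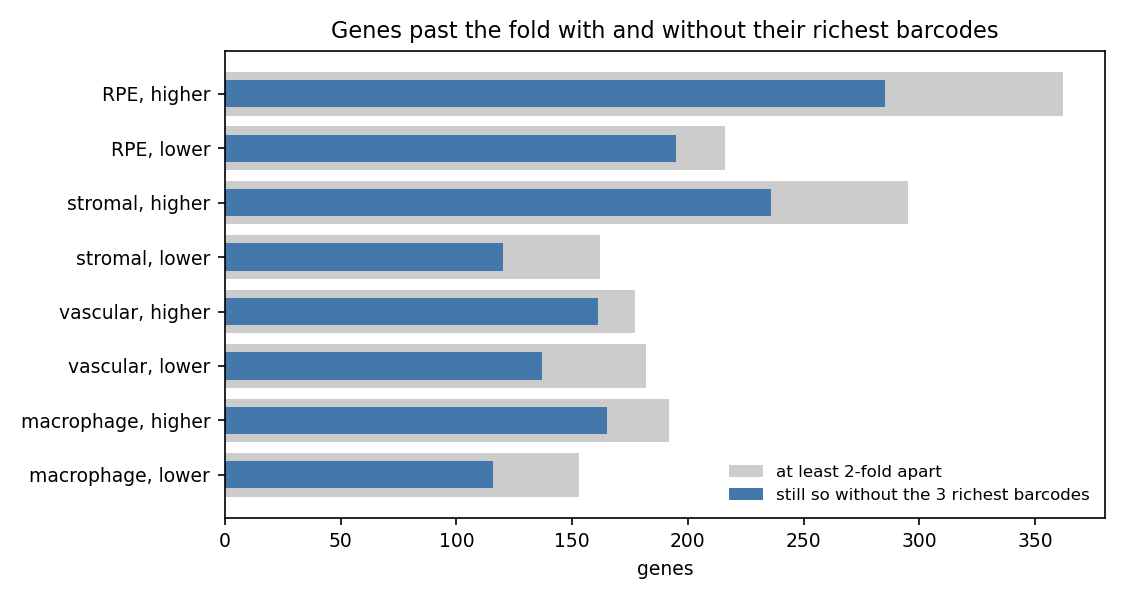
Number of genes at least 2-fold higher or lower in the knockout in each class at 2 months (grey), and how many were still so without the 3 barcodes of each library richest in the gene (blue). Of the 362 higher RPE genes 285 remained, and of the 162 lower stromal genes 120 remained.

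Summed over whole libraries, the comparison looked different. Among 15270 genes, 1493 (9.78%) were higher by 2-fold or more and 260 (1.70%) lower, and the median of all genes was 0.24 against 0.00 to 0.05 in the 4 classes. Of the 1493 higher genes 1192 (79.8%) were called in none of the 4 classes, 624 of them although measured there. Extracellular matrix genes were higher for 30 of 38 (median 0.88), 18 at least 2-fold. TGF-beta signalling and mesenchymal genes were higher for 24 of 28 (0.58). Within stromal barcodes those medians were 0.14 and -0.14. Antigen presentation and interferon genes were higher for 29 of 36 over the libraries (0.34) and had medians below 0 in each class. Ribosomal protein genes were higher for 75 of 77 over the libraries (0.36), and complexes III to V lower for all 34 (-0.30). Summed over libraries, more barcodes of a class and more RNA per barcode cannot be told apart. The markers moved with these values: the median over the 8 stromal markers was 1.31, over endothelial ones 1.05, over macrophage ones 1.11 and over RPE ones -0.46. Red-cell markers were at -2.11.

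The genes furthest apart over whole libraries were mostly those of a few barcodes outside the 4 classes. Krt12, the keratin of the corneal epithelium, came from 1 knockout barcode (234 UMIs against 1), and Lypd2 (10 and 557 UMIs) and Slurp1 (5 and 122) were as concentrated, with 96.9% of the knockout UMIs of Lypd2 in 3 barcodes and those of Slurp1 in 2. On the lower side Krt4, another surface keratin (1039 and 10 UMIs), Saa3, an acute phase protein (154 and 1), and Chil3, a chitinase-like protein of myeloid cells (142 and 0), came from 6, 6 and 10 wild-type barcodes. Gm16867 (117 and 0 UMIs, at least 26.8-fold lower), like Gm35082 in the other direction, was spread widely, over 108 wild-type barcodes.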

How the data were processed

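Droplet single-cell RNA sequencing of the RPE and choroid was compared between 1 Vldlr-/- and 1 wild-type library at 2 months. The deposited values were unnormalized UMI counts per gene and barcode, all whole numbers, made with Cell Ranger 7.0.1 at 2 months and 6.0.2 at 1 month, per the file headers. Cell Ranger 3.0, Seurat 4.0 and the build mm9 appear in the submitters' processing notes. Age and software version cannot be told apart. The sources used here do not say whether intron reads entered the counts. Of 32285 identifiers, 32235 matched GENCODE M21 (GRCm38), which gave the coordinates.

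Of 2540 wild-type and 1634 knockout barcodes, 317 and 326 had fewer than 300 genes and another 176 and 168 more than 30% mitochondrial UMIs, and were left out. Classes were given by detected markers, as stated in the results. Barcodes with the markers of several types (51 wild-type, 50 knockout) or of too few (118 and 70) entered the whole-library sums only. No doublet caller was run. Counts were summed per library and class and scaled to CPM. The log2 ratio used 0.5 added counts. Exact Poisson, conditional binomial and Clopper-Pearson 95% intervals cover counting error only. The 95% interval of a list median, used only to compare settings, is an order-statistic interval over the genes of the list. A gene at 0 in a library was set against a floor of 3 counts per class and library. The calculation was tested on simulated data.

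The members, markers and 23 gene lists were chosen with earlier results of these data known, and 2 further lists (circadian clock and glucocorticoid-induced genes) after the values of some of their members had been seen. Named were the recurring genes (up to 12 per direction), per class and for the whole library the 4 genes per direction furthest apart with at least 100 UMIs (within a class, a level of at least 0.25 of the highest class), 2 members per list, and genes for checks. Others, among them Gdpd3, Hddc3, Acadsb, Trim34a, Trim12c, H2-Aa, Isg15, Sqle, Rgr and the genes at 1.5-fold, were named after their values were seen. A few genes that these rules name are not reported here. Alternatives covered the filters, scaling, leaked RNA, thinning, the Malat1 split, parts of the vascular class, the fold and the UMI minimum. The tools were pandas 2.3.3, numpy 2.4.6, scipy 1.17.1 and matplotlib 3.10.9 under Python 3.11.15.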

Additional observations from a re-analysis of the deposited data

Results flagged for a closer look

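Several named genes pointed in opposite directions between classes or ages. These differences were not tested, since each group is 1 library. Hbb-bs, a hemoglobin chain, had a log2 ratio of knockout to wild type of -3.02 in RPE and 5.51 in vascular barcodes. Gpx3, a secreted peroxidase, was at -5.83 in RPE and -1.46 in vascular but 1.31 in stromal barcodes. Without the 3 richest barcodes of each library these were -4.19, -0.61 and 0.044, and the RPE value was -1.08 without barcodes holding 2 or more of Gpx3, Penk, Optc and Crhbp. Optc, an extracellular proteoglycan, was at -4.22 in RPE and 6.17 in stromal barcodes. Penk, proenkephalin, was at 1.33 in stromal and -2.09 in vascular barcodes, and the stromal value was 0.67 without the 3 richest barcodes.

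Immune genes did so as well. Cd74 was at -1.84 in RPE, 2.38 in stromal and -2.07 in vascular barcodes, the last against 3.59 in vascular barcodes at 1 month. Ccl2, a monocyte chemokine, was at -2.40 in stromal and 2.50 in macrophage barcodes. Gpr137b, a lysosomal membrane protein, was at -2.39 in stromal and 1.05 in macrophage barcodes. Spp1 was at 2.99 in RPE and -3.73 in macrophages, where the 1-month value was 3.59, and without the 3 richest barcodes the RPE value was 1.46. Ccl12 was at -1.85 in macrophages and 2.16 in macrophages at 1 month. Ctss was at 2.05 in stromal barcodes and -2.13 in those at 1 month, and Mt2 at -2.52 and 1.78.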

How the results depend on the processing

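Of 612 recomputed list medians, 572 stayed within the interval of the reported median and 40 left it. Among the 40, 13 had the other sign and are named below. Another 37 had the other sign but stayed within the interval, which spans the genes of a list and can be wide. Of 518 values of single genes, 466 stayed and 52 left it, 6 with the other sign. The 3 higher and 3 lower recurring genes became 9 and 8 with at least 10 UMIs, 0 and 1 with at least 100, 12 and 17 at 1.5-fold, 1 and 0 with barcodes thinned to 2000 UMIs (220 wild-type and 163 knockout barcodes left out), 1 higher with RPE barcodes under 1000 CPM of Malat1 and 1 lower with mural barcodes only; fewer UMIs or barcodes entered the smaller counts. Without the limit on leaked RNA, Rgr was added to the lower genes. The RPE share of the wild type was 73.7% with at least 1000 genes and 74.2% after thinning, and the knockout stromal share 16.1% with at least 1000 genes. The RPE median of mitochondrially encoded genes was -0.16 at 15% mitochondrial UMIs, -0.12 with the class median set to 0, -0.63 in Malat1-rich RPE and -0.11 without the 3 richest barcodes. In Malat1-rich RPE, complex I (0.0023), antioxidant genes (0.011), nuclear noncoding RNAs (-0.060), immediate early (-0.45), visual cycle (0.24), integrated stress (0.25), lysosome (0.14), TGF-beta (-0.17) and ribosomal protein genes (0.098) and Hbb-bs (1.74) had the other sign. In mural barcodes only, ribosomal proteins (-0.12) and Penk (0.017) did, and in endothelial barcodes only, complexes III to V (0.023). At 15% mitochondrial UMIs stromal Penk did (-0.64). Without the 3 richest barcodes Gpr137b in stromal (0.42), Hbb-bs in RPE (1.73) and Cd74 in RPE (0.17) did, as did vascular extracellular matrix (-0.076) and lipoprotein uptake genes (0.33). The cause was not tested. Leaving out the richest barcodes, and RPE barcodes with 2 or more of Gpx3, Penk, Optc and Crhbp, were chosen after seeing the data. No paired analysis was possible because each group is 1 library with no replicate numbers. The depth of 10 to 40 UMIs behind several macrophage values leaves their intervals wide.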

Other observations

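A group of genes known to be induced by glucocorticoid hormones was listed after the values of Fkbp5, Cebpb and Per1 had been seen, so its counts describe the libraries and support nothing. Of its 20 members, 18 of 19 measured were lower in knockout stromal barcodes at 2 months (median log2 ratio -0.72), 19 of 20 in vascular (-0.62), 12 of 15 in macrophage (-1.33) and 14 of 18 in RPE barcodes (-0.29), beside medians of 0.00, 0.04, 0.03 and 0.05 over all genes. At least 2-fold lower were 5, 6, 9 and 3 of them in that order, where 1.67%, 2.02%, 2.93% and 1.81% of all genes were. Tsc22d3, which encodes the glucocorticoid-induced leucine zipper, was at 324 and 114 CPM in macrophages (-1.51, interval -1.92 to -1.11) and gave -0.45, -0.28 and -0.36 in RPE, stromal and vascular barcodes. Zbtb16, a transcriptional repressor, gave -1.71, -0.68, -0.39 and -0.45 in the same order. Without the 3 richest barcodes of each library per gene the medians were -0.74 in stromal, -0.70 in vascular, -1.33 in macrophage and -0.30 in RPE barcodes. At 1 month the list was split in stromal (10 higher, 9 lower, median 0.07) and vascular barcodes (5 and 5, -0.01), higher in RPE (6 of 7, 0.18) and lower in macrophages (8 of 9, -0.50). Over whole libraries at 2 months 9 were higher and 11 lower (-0.06).

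Circadian clock genes, listed in the same way, had 8 higher and 12 lower in RPE (median -0.05), 12 and 7 in stromal (0.15), 6 and 12 in vascular (-0.14) and 2 and 4 in macrophage barcodes (-0.16). The sources used here do not give the time of day of collection.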
